A study of Mus musculus with 6 samples.

Results

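The 10 genes described here, Tfap2a, Tfap2b, Sox9, Sox10, Foxd3, Dlx1, Dlx2, Dlx5, Dlx6 and Ednra, encode regulators of the neural crest and of the mesenchyme that crest cells form in the pharyngeal arches. They were chosen by name, and every non-control probe whose RefSeq accession belongs to one of them was taken, which gave 11 of 39429 probes on an array that held 20021 genes with a symbol. Tfap2a had a pair of probes and the other 9 genes had 1 each. All 10 genes passed the filter on dim probes, and 10 of the 11 probes were well above background on all 6 arrays.

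RNA was taken from mouse hearts at embryonic day 9.5 and measured on 6 single-colour Agilent arrays. The dissected piece held the heart tube together with the pharyngeal mesoderm and endoderm lying under it. How much crest mesenchyme of the arches it held is not given. The groups were wild type (labelled wt, 3 pools) and Arid3b-null (3 pools), and each pool was made from 4 embryos. Arid3b encodes a transcriptional regulator that binds AT-rich DNA through its ARID domain, and how the null allele was made and the mouse strain are not given in the sources used here.

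The neural crest is a cell population that leaves the dorsal neural tube, moves through the head and neck and gives rise to arch skeleton, peripheral neurons and glia, pigment cells and the septum of the cardiac outflow tract. AP-2 and SoxE transcription factors and Foxd3 act early in its specification and in keeping its cells multipotent. In the arches, crest mesenchyme reads its position along the upper and lower jaw through nested expression of Dlx homeobox genes, and endothelin-1 from the arch epithelium and mesoderm signals through the receptor Ednra on crest cells to set the lower-jaw programme, in which Dlx5 and Dlx6 are expressed.

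Of the 10 genes, 1 rose (Tfap2a), 1 fell (Dlx1) and 8 did not pass the test in the null pools. Over all 21800 genes tested, of which 15233 had a symbol and the others stand under the identifier in the files, 10.4% passed an adjusted p under 0.05, 6.6% as higher and 3.83% as lower in the null pools, at which share about 1 of 10 genes would be called. Levels in the groups were fully apart for 3 factors (Tfap2a, Dlx1 and Dlx2), beside 33% of the 21784 genes measured on all 6 arrays. When slide was added as a block, 0 of the 10 passed, beside 3.35% of all genes. The median change of the 10 genes was -0.13 in log2 units, null minus wild type, beside 0.03 over all genes tested. These data come from whole dissected pieces, in which fewer cells of a type and less RNA per cell cannot be told apart.

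Between 27136 and 31039 of 43020 non-control spots per array exceeded background by the scanner's criterion and 0 were saturated. The targeted gene, Arid3b, had relative levels of 2.91, 3.40 and 3.69 in the wild-type pools and 1.07, 0.52 and 0.45 in the null pools, with no overlap. Pools of the same number lay on the same slide, with wild type always in the same position of the 3 slides, so position and genotype cannot be told apart. All 10 cardiomyocyte markers were measured, and their summed level reached 10.96 in the wild-type and 11.12 in the null pools. Null pool 3 stood apart in Prl3d1, a prolactin-family hormone gene of trophoblast giant cells. Prl3d1 had levels of -3.19, -2.99 and -3.30 in the wild-type pools and -3.21, -0.97 and 4.78 in null pools 1, 2 and 3. Of 10 trophoblast markers 7 were measured and 1 rose (Ascl2, by 3.62, SE 0.19), while Prl2c2, Tpbpa and Psg17 were not measured. The 6 with a value on every array had summed levels of -0.66 to -0.34 in wild type and 0.52 to 4.89 in null. These sums leave out Gcm1, which read 3.223, 1.699 and 3.455 in wild-type pools 1, 2 and 3, above the wild-type sums. Gcm1 had no value in null pool 1 and read 4.62 and 4.75 in null pools 2 and 3. Its change of 1.89 (SE 0.51) did not pass (limma adjusted p = 0.069). Under scaling to the array median in place of the 75th percentile, the median change over all genes moved by -0.14 and the split of calls turned from 1439 higher and 834 lower to 1093 higher and 1435 lower. Both scalings subtract 1 constant per array, so a change relative to that median could not differ between them. It was 0.88 for Tfap2a and -1.16 for Dlx1.

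**Figure D1:**
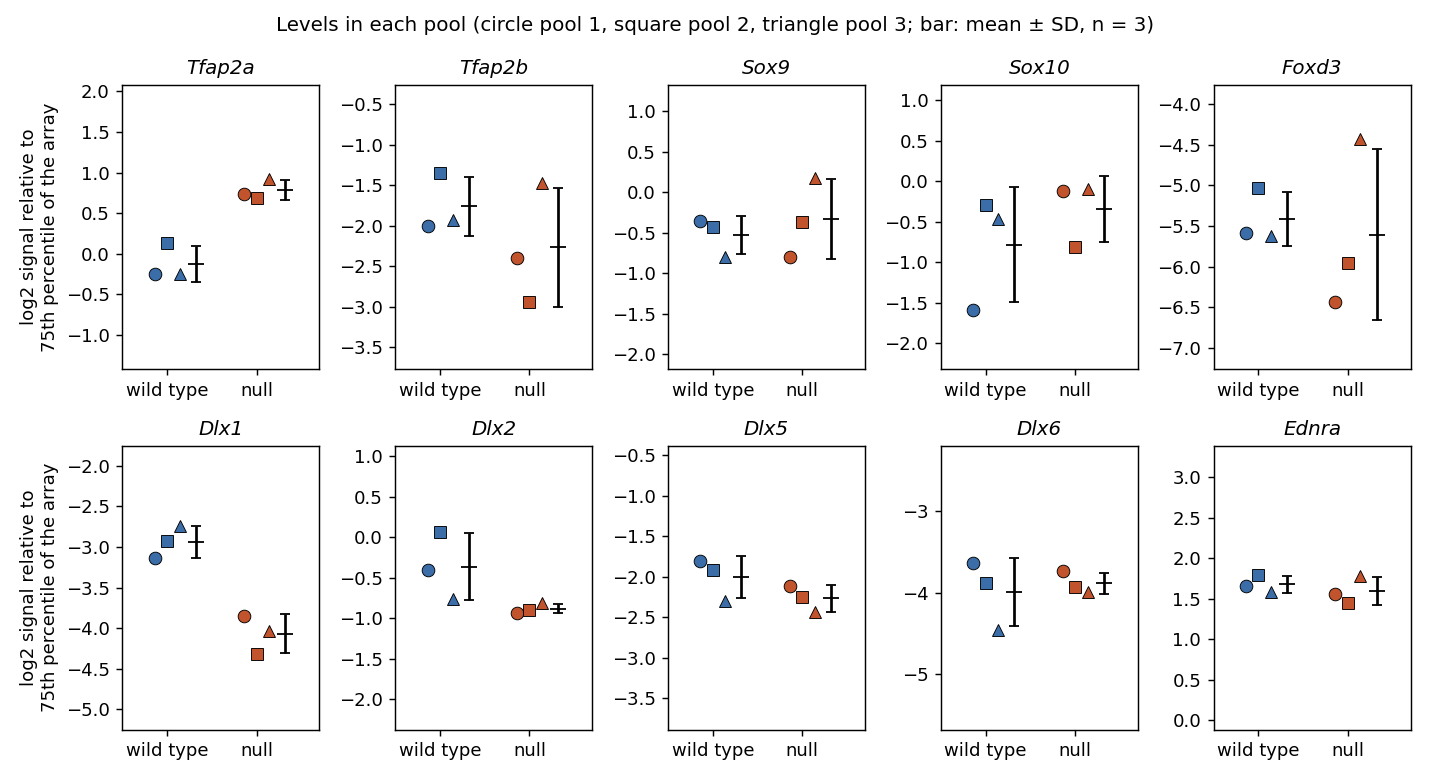
Relative level of each of the 10 genes in each pool: log2 signal minus the array's 75th percentile, on axes of equal span, with blue for wild type and orange for null, symbols for pools 1 to 3, and bars for the mean ± SD (n = 3 pools). The groups are apart for Tfap2a (null higher), Dlx1 and Dlx2 (null lower), and null pool 3 is the highest null pool for Tfap2a, Tfap2b, Sox9, Sox10, Foxd3, Dlx2 and Ednra.

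Tfap2a, which encodes the AP-2 alpha factor used by crest cells and by surface ectoderm, was higher in the null pools, each of which lay above all 3 wild-type pools. Its brighter probe read -0.25, 0.13 and -0.25 in wild-type pools 1, 2 and 3 and 0.74, 0.69 and 0.92 in null pools 1, 2 and 3, as relative levels, meaning log2 signal minus the array's 75th percentile. The null pools lay within 0.23 of each other, less than the gap that separated them from the highest wild-type pool. The mean went from -0.12 ± 0.22 in wild type to 0.79 ± 0.12 in null (SD, n = 3), a rise of 1.88-fold (log2 change 0.91, SE 0.17, limma adjusted p = 0.0208).

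Tfap2a was 0.99, 0.56 and 1.18 log2 units higher in the null than in the wild-type array of slides 1, 2 and 3. The dimmer probe, designed on another transcript of the gene, read -4.92, -4.95 and -4.80 in the wild-type pools and -4.81, -4.29 and -3.93 in the null pools, a difference of 0.55 with groups that overlap. With the slide as a block the adjusted p for the brighter probe was 0.109, and it was 0.0608 with no filter on dim probes. It lay between 0.0583 and 0.0744 on leaving out pool 1 or 3 of wild type or pool 2 or 3 of the null group.

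The surface ectoderm and epithelium markers, a tissue in which Tfap2a is also known to be expressed, had a summed level of 5.52 to 5.68 in the wild-type pools and 6.42 to 6.63 in the null pools. Of the 10 measured markers, 1 rose (Krt18, a simple epithelial keratin, by 1.09, SE 0.16) and 1 fell (Krt5, a basal keratin, by -1.57, SE 0.18). The other 8 did not pass, and the median change of the 10 was 0.28. Krt18 alone made up most of the summed level, at 5.20, 5.09 and 4.91 in the wild-type and 5.99, 6.23 and 6.24 in the null pools. With the slide as a block the adjusted p of Krt18 was 0.0649, and with normexp background correction the change of Krt5 was -0.66. Their part in the result for Tfap2a was not tested.

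Tfap2b, the AP-2 beta gene, read -2.0, -1.35 and -1.93 in the wild-type pools and -2.39, -2.93 and -1.48 in the null pools. Null pools 1 and 2 lay below the 3 wild-type pools, and null pool 3 lay among them. The change of -0.51 did not pass (SE 0.37, 95% interval -1.38 to 0.37, adjusted p = 0.435). Within the slides it was -0.39, -1.59 and 0.46. The change was -0.90 without null pool 3, -0.17 without null pool 2 and -0.30 without wild-type pool 2, and did not pass in any of these. Tfap2c, the AP-2 gamma gene, which trophoblast also expresses, was highest in null pool 3, the pool with the high Prl3d1 level. Tfap2c read -1.67 there, beside -3.13 and -2.97 in null pools 1 and 2 and -2.86, -2.44 and -2.80 in the wild-type pools. The part of trophoblast transcripts in the values of the AP-2 genes was not tested.

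**Figure D2:**
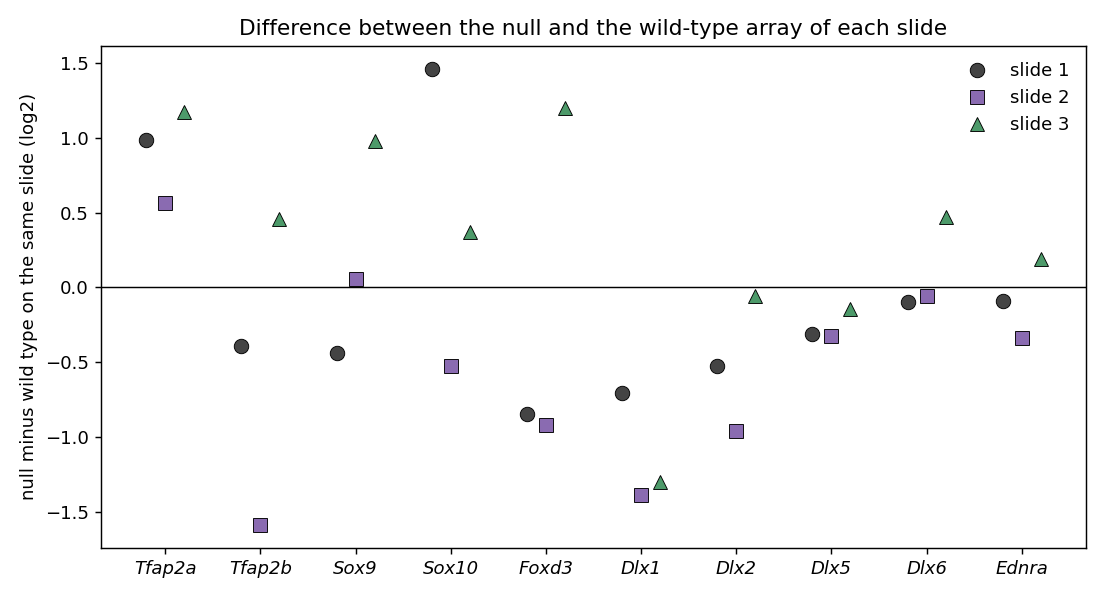
Difference in log2 level between the null and the wild-type array on each of the 3 slides, for each of the 10 genes. Tfap2a is above 0 and Dlx1, Dlx2 and Dlx5 are below 0 on each slide, while Tfap2b, Sox9, Sox10, Foxd3, Dlx6 and Ednra lie on both sides of 0.

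The bases before the transcription starts are shown for the AP-2 genes and Dlx1, because Tfap2a and Dlx1 were the 2 genes called, in opposite directions, and Tfap2b is the close relative of the first. The RefSeq promoter table (GRCm38.p6) matched 6 of the 10 genes, with 7 windows of 300 bases. Each line gives the 250 bases before the start on the gene's own strand, 5′ to 3′, with the letters of ATTAA, an AT-rich core of the kind bound by ARID3 proteins, in capitals on either strand.
Tfap2a, the more upstream of its starts, chr13:40734921-40735170, minus strand: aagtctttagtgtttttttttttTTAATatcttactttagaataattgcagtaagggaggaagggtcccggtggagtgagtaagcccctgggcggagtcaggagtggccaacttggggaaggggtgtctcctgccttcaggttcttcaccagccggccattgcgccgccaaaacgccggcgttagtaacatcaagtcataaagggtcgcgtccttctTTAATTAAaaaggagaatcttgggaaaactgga
Tfap2b, chr1:19211804-19212053, plus strand: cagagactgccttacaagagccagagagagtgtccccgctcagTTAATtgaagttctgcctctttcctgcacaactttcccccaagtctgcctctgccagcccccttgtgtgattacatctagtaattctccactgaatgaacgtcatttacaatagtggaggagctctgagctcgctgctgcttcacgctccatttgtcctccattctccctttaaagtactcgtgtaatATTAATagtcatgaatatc
Dlx1, chr2:71529195-71529444, plus strand: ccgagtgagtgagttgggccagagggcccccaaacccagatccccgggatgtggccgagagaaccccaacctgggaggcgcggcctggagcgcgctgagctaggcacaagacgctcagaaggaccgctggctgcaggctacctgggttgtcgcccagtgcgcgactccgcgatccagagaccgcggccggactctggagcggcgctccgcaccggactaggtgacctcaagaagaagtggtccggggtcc

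The upstream Tfap2a window held 3 matches to ATTAA, of which 2 overlap, and the Tfap2b window held 3, of which 2 overlap. The other Tfap2a window and those of Dlx1, Dlx2, Foxd3 and Ednra held 0. Over all 32841 windows of the table, 27.1% held a match on either strand, so 2 of 7 is near the share of promoters at large. The windows with matches were the ones richest in A and T among the 7, with 46.3% (Tfap2a) and 48.3% (Tfap2b) G and C, beside 69.3% for Dlx1, 66.3% for Dlx2 and a median of 52.7% over all windows. The AP-2 motif GCCNNNGGC and the Sox core ACAATG had 0 matches in the 7 windows and stood in 16.6% and 12.6% of all windows. The homeodomain core TAATTA, which overlaps ATTAA, stood in 1 of the 7 (Tfap2a) and in 5.29% of all.

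Sox9 and Sox10, the SoxE genes, and Foxd3 did not pass the test. Sox10, which marks migrating crest and its glial and pigment lineages, read -1.59, -0.29 and -0.47 in the wild-type pools and -0.13, -0.82 and -0.10 in the null pools. Wild-type pool 1 was the lowest of the 6, and the other 5 pools overlapped between the groups. The difference was 0.43 (SE 0.37, 95% interval -0.43 to 1.30, adjusted p = 0.502), with 1.46, -0.53 and 0.37 within slides 1, 2 and 3. Without wild-type pool 1 the difference was 0.03, and with array weights it was 0.01 (SE 0.33).

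Sox9, which acts in premigratory crest and later in cartilage, was measured on 10 replicate spots per array. It read -0.36, -0.43 and -0.80 in the wild-type pools and -0.80, -0.37 and 0.18 in the null pools, and the groups overlapped. Its change was 0.20 (SE 0.27, 95% interval -0.43 to 0.83, adjusted p = 0.692). Without null pool 3 the sign turned, to -0.06.

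Foxd3, a forkhead factor of premigratory crest and crest stem cells, was near the detection limit: it was well above background on all 3 wild-type arrays and on 1 null array. Its readings were -5.59, -5.03 and -5.63 in the wild-type pools and -6.44, -5.95 and -4.43 in the null pools. Null pool 3 was the highest of the 6 and the other null pools the lowest. The change of -0.19 (SE 0.49, 95% interval -1.33 to 0.95) did not pass, with adjusted p = 0.847. Null pool 3 thus had the highest Sox9 and Foxd3 values of the 6 pools, as it had for Tfap2a and Sox10, and the part of its trophoblast transcripts in these values was not tested.

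Within-group spread was large for these regulators. The pooled SD was 0.78 for Foxd3, 0.58 for Tfap2b, 0.58 for Sox10 and 0.39 for Sox9, beside a median of 0.26 over all genes, which puts them at the 97.2, 92.0, 91.7 and 75.6 percentiles of SD. Ednra and Tfap2a lay at the 14.8 and 25.9 percentiles, with pooled SDs of 0.14 and 0.18.

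The Dlx genes lie in the genome as neighbouring pairs, Dlx1 beside Dlx2 and Dlx5 beside Dlx6, and the members of a pair are known to share enhancers between them. Dlx1, a homeobox gene of the proximal and distal arch mesenchyme, fell 2.19-fold in the null pools. It read -3.14, -2.93 and -2.74 in wild-type pools 1, 2 and 3 and -3.85, -4.32 and -4.04 in null pools 1, 2 and 3. The highest null pool lay below the lowest wild-type pool by more than either group's SD. The means were -2.94 ± 0.20 and -4.07 ± 0.24 (SD, n = 3), a log2 change of -1.13 (SE 0.19, limma adjusted p = 0.0131), with -0.71, -1.39 and -1.30 within slides 1, 2 and 3.

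The probe of Dlx1 was dim although well above background on all 6 arrays. With normexp on the median spot signal and an offset of 50, in place of the scanner's processed signal, the change was -0.35 (adjusted p = 0.141). The adjusted p was 0.0649 with a slide block, 0.0593 on leaving out wild-type pool 2 and 0.0548 on leaving out null pool 2, at changes of -1.13, -1.13 and -1.01.

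Dlx2, the neighbour of Dlx1 and co-expressed with it in arch mesenchyme, read -0.40, 0.06 and -0.76 in the wild-type pools and -0.93, -0.90 and -0.82 in the null pools. The null pools lay close together just under wild-type pool 3, so that the groups did not overlap while the gap was 0.06 on slide 3. The change of -0.52 did not pass (SE 0.22, 95% interval -1.04 to 0.01, adjusted p = 0.192). It passed with array weights (-0.69, adjusted p = 0.0395), while without wild-type pool 2 it was -0.30 (adjusted p = 0.422). Whether Dlx1 and Dlx2 differ in their change was not tested.

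Dlx5, which marks the lower-jaw domain, read -1.80, -1.92 and -2.30 in the wild-type pools and -2.11, -2.25 and -2.44 in the null pools. Each null array lay below the wild-type array of its slide, by -0.31, -0.33 and -0.14, but the groups overlapped. Its change was -0.26 (SE 0.19, 95% interval -0.70 to 0.18, adjusted p = 0.428). Dlx6, its neighbour, read -3.64, -3.88 and -4.46 in the wild-type pools and -3.74, -3.93 and -3.99 in the null pools. Its difference of 0.11 (SE 0.23, 95% interval -0.44 to 0.65, adjusted p = 0.819) turned to -0.03 under median scaling.

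The other Dlx genes measured were Dlx3, at 0.11 (SE 0.24), and Dlx4, at 0.79 (SE 0.45), and neither passed. Dlx5 and Dlx6 deviated alike within the groups, with Pearson's r of 0.95 between their deviations from the group means over the 6 arrays, while for Dlx1 and Dlx2 this r was -0.28. These correlations are descriptions over 6 arrays that share dissection, slide and scaling.

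**Figure D3:**
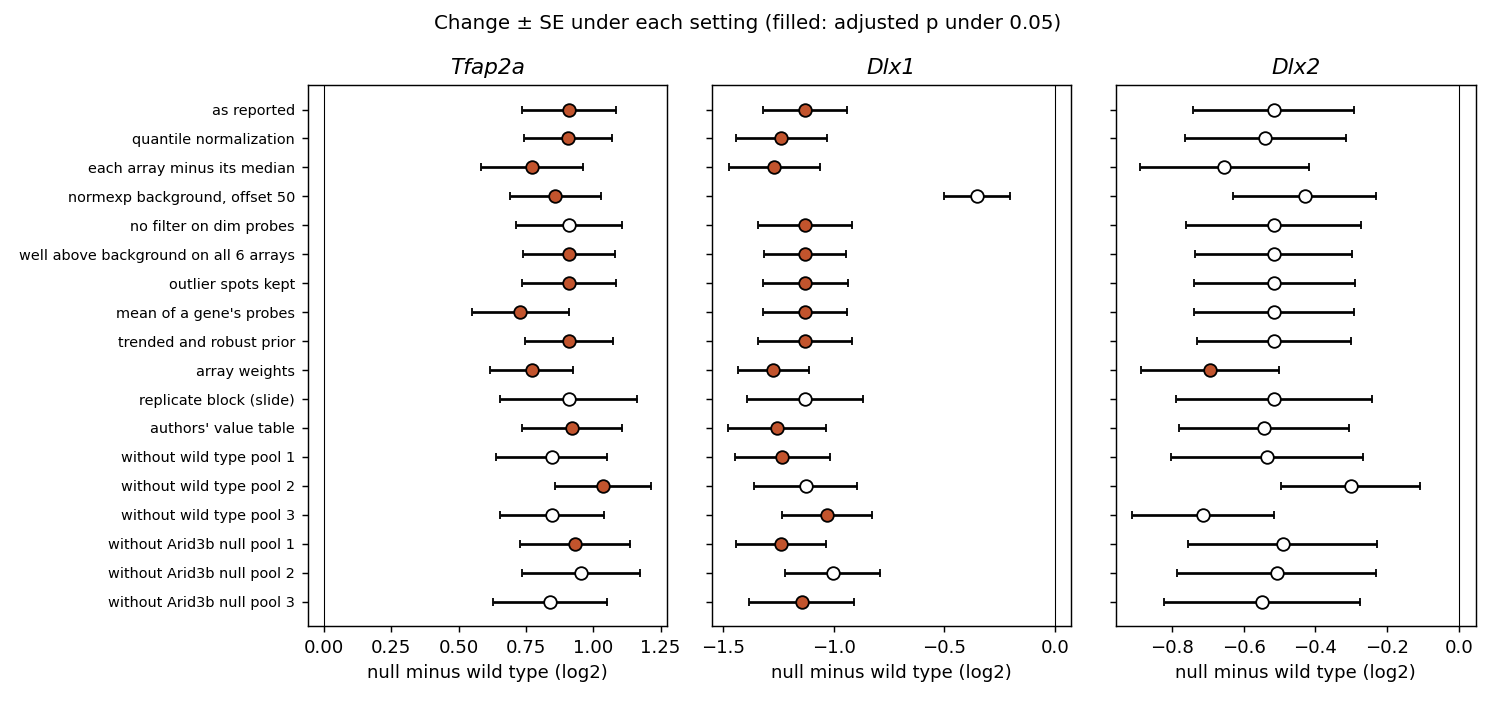
Log2 change (null minus wild type) ± SE of Tfap2a, Dlx1 and Dlx2 as reported and under each alternative setting, including leaving out each pool; filled points have an adjusted p under 0.05. Tfap2a stays between 0.73 and 1.04, Dlx1 lies near -1 or below except at -0.35 with normexp, and Dlx2 is filled with array weights.

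Ednra, the endothelin-A receptor of crest mesenchyme, was the steadiest of the 10 genes. It read 1.65, 1.79 and 1.59 in the wild-type pools and 1.56, 1.45 and 1.78 in the null pools, with group means of 1.68 ± 0.10 and 1.60 ± 0.17 (SD, n = 3). The groups overlapped, and the change of -0.08 (SE 0.16, adjusted p = 0.799) has a 95% interval of -0.46 to 0.30.

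Of the 10 other endothelin pathway genes listed, all were measured, 1 rose, 0 fell and 9 did not pass, with a median change of 0.20. The groups were apart in 5 (50%), beside 33% of all genes, and 10.4% of all genes passed. Edn1, the ligand of Ednra that arch epithelium and endothelium release, read -1.39, -1.37 and -1.77 in the wild-type pools and -0.94, -0.61 and -0.48 in the null pools. The groups were apart, by 0.43 between the nearest pools, and the change was 0.83 (SE 0.20, adjusted p = 0.0395). Edn1 kept its direction under each setting, but its adjusted p was 0.0537 with quantile normalization, 0.0531 with the authors' table, 0.0581 with median scaling, 0.0991 with no filter, 0.159 with the slide as a block and up to 0.131 with a pool left out. The summed markers of tissues that release Edn1 were also apart between the groups. For epithelium the sums were 5.52 to 5.68 in wild type and 6.42 to 6.63 in null, mostly from Krt18. For endothelium they were 3.53 to 3.68 and 3.81 to 4.08. Of the 8 endothelial markers 0 passed, and the groups were apart for 1, beside 33% of all genes. The part of these tissues in the result for Edn1 was not tested. Edn2, another endothelin gene, was above background on 2 wild-type and 2 null arrays. Its change was 1.30 (SE 0.45), with groups that overlap. The ligand of the related receptor, Edn3, above background on 1 null array, had a change of -0.69 (SE 0.25). That receptor, Ednrb, had one of 0.00 (SE 0.18), and the activating protease Ece1 one of 0.41 (SE 0.23). Edn2, Edn3, Ednrb and Ece1 did not pass.

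Of 31 other regulators of the neural crest, 28 were measured, 1 rose, 0 fell and 27 did not pass, with a median change of 0.12. An unadjusted p under 0.05 was found for 6 of the 28, and SEs reached 0.76. The groups were apart in 7 (25%), beside 33% of all genes, and 10.4% of all genes passed the test. The gene that rose was Zic2, a zinc finger factor of the dorsal neural tube and crest precursors, which read -8.93, -6.70 and -6.83 in the wild-type pools and -2.66, -4.56 and -4.28 in the null pools. It was well above background on 1 of the 3 wild-type arrays and on all 3 null arrays, and its fitted change was 3.65 (SE 0.70, adjusted p = 0.0208), or 1.22 with normexp. The call of Zic2 ended without wild-type pool 3 (adjusted p = 0.0513).

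Among the genes that pattern the arches, 26 of 27 were measured, 0 rose, 3 fell and 23 did not pass, with a median change of -0.13. Over all genes, 10.4% passed, 3.83% as lower. The groups were apart in 7 of the 26 (26.9%), beside 33% of all genes. The calls were 1 higher and 2 lower with the filter to all 6 arrays, and 2 higher and 3 lower with a trended prior. Osr1, a zinc finger factor of lateral mesoderm and arch mesenchyme, read 0.39, 0.71 and 0.75 in the wild-type pools and -0.46, -0.31 and -0.24 in the null pools. The groups were well apart, and the change was -0.96 (SE 0.17, adjusted p = 0.0153). Lhx8, a LIM homeobox gene of oral arch mesenchyme, fell by -1.35 (SE 0.23, adjusted p = 0.0130). Lhx8 exceeded background on 1 of the null arrays, and with normexp its change was 0.15 (SE 0.18) and its call was lost. Without wild-type pool 2 its adjusted p was 0.0629. The count of 3 was 0 without wild-type pool 2, and 1 with normexp, with a slide block, on leaving out wild-type pool 3 or on leaving out null pool 2. The adjusted p of Osr1 was 0.0696 on leaving out wild-type pool 2, 0.0522 on leaving out wild-type pool 3, 0.0610 on leaving out null pool 2 and 0.0803 with a slide block.

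The receptors and ligands that guide crest cells to the arches and outflow tract were measured for 22 of 22 genes listed. Of these 0 passed with limma, while 1 had an unadjusted p under 0.05 and 1 passed with array weights. Their median change was 0.09, and the groups were apart in 6 (27.3%), beside 33% of all genes. The smallest unadjusted p values belonged to the semaphorin receptor Plxnd1, with a change of 0.59 (SE 0.22, adjusted p = 0.134), and the ephrin Efnb1, with 0.36 (SE 0.17, adjusted p = 0.235).

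Of 17 genes of crest-derived glia, pigment cells and neurons, 15 were measured, 1 rose, 0 fell and 14 did not pass, with a median of -0.25. The groups were apart in 3 (20%), beside 33% of all genes, and 10.4% of all genes passed. Kit, the receptor of melanoblasts that blood and germ cell progenitors also carry, read -0.64, -0.08 and -0.15 in the wild-type pools and 1.35, 0.86 and 0.77 in the null pools. The groups were apart and the change was 1.29 (SE 0.23, adjusted p = 0.0167), with 0.0650 when the slide was a block. The glial genes Erbb3 (0.55, SE 0.26) and Fabp7 (-0.39, SE 0.16) changed in opposite directions, and neither passed.

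**Figure D4:**
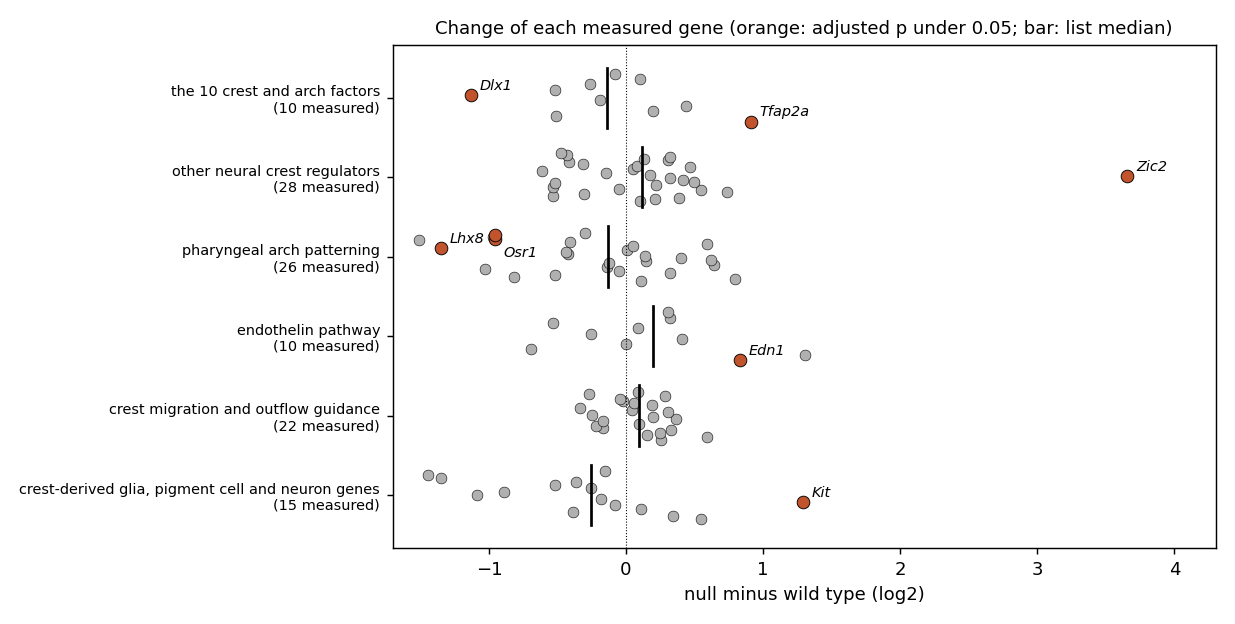
Log2 change (null minus wild type) of each measured gene among the 10 factors and in 5 lists of related genes, with orange for an adjusted p under 0.05 and a bar for the median of each list. Medians lie between -0.25 and 0.20, and each list has at most 3 called genes.

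Some of the 10 genes varied together across the arrays. Tfap2b and Ednra had the highest Pearson's r of the 45 pairs (0.97 over the 6 arrays, and 0.98 between deviations from the group means), and Sox9 and Foxd3 had 0.80 and 0.89. Tfap2a and Dlx1 had an r of -0.90 over the 6 arrays and 0.12 between deviations from the group means, so their opposite course lay in the difference between the groups.

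The genes most like a factor over the 6 arrays were named by the highest r among 15217 genes with a symbol. This r includes the difference between the groups, which were apart for Tfap2a, for Dlx1 and for 33% of all genes. Genes that differ between the groups can thus rank high without varying with the factor inside a group. For Tfap2a these were Robo4 (r = 0.998), Cyp4b1 (0.996) and Gfra2 (0.995), and 303 genes had an r over 0.95. For Dlx1 these were Fam98a (0.998), Dolpp1 (0.997) and Atf7ip (0.997), with 285 genes over 0.95. For Sox10, in which the groups did not separate, they were Dtx4 (0.984), Eya2 (0.980) and Tbc1d16 (0.965), with 5 genes over 0.95.

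**Figure D5:**
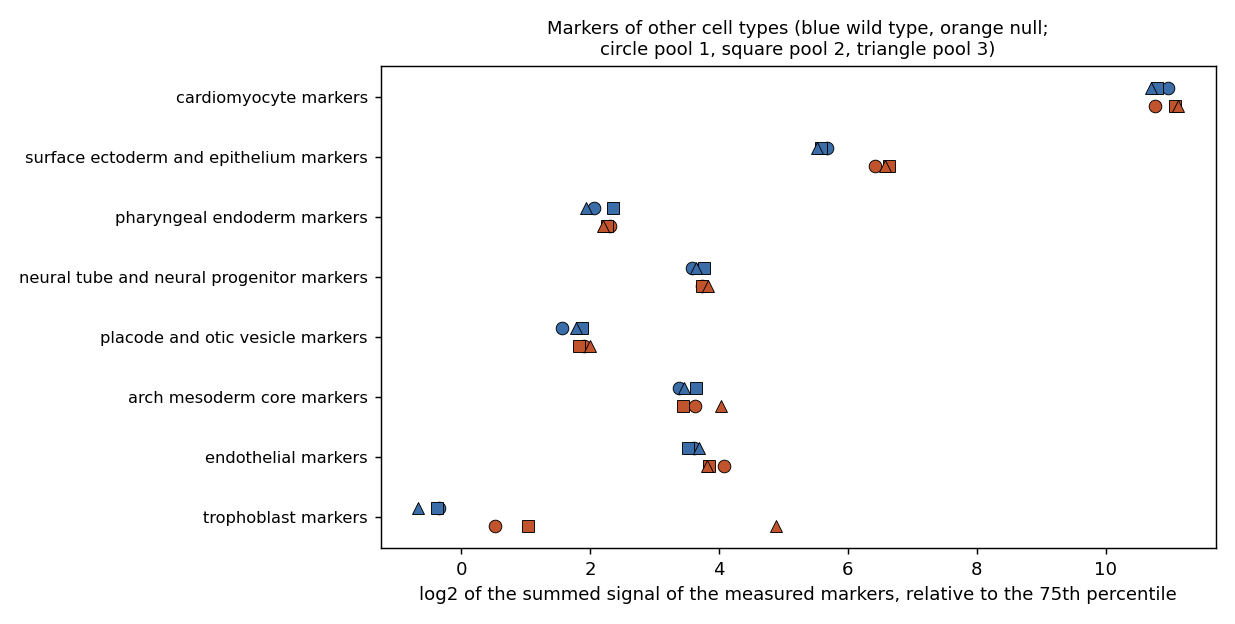
Summed level of the measured markers of other cell types in each pool, as the log2 of the summed signal relative to the array's 75th percentile, with blue for wild type, orange for null and symbols for pools 1 to 3. Sums of surface ectoderm and epithelium, endothelial and trophoblast markers are apart between the groups, with null higher. Most of the epithelial sum is Krt18. The trophoblast sum is 4.89 in null pool 3, mostly from Prl3d1, beside 0.52 and 1.04 in the other null pools. This sum leaves out Gcm1, which had no value in null pool 1. Gcm1 read 3.223, 1.699 and 3.455 in wild-type pools 1, 2 and 3 and 4.62 and 4.75 in null pools 2 and 3.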

How the data were processed

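The authors deposited intensity values of 1 scan per array; the scanner software was Feature Extraction 10.7.3.1 and the array design 026655, per the file headers. The authors' value table held log2 values of 24158 non-control probes, made in a way not given in the sources used here; these had medians of 6.76 to 6.77, so were not centred on 0, and correlated above 0.999 with the scanner values on each array, across probes. Flags of 0 or 1 in the deposited files mark spots that are outlying, saturated or well above background.

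The log2 of the processed signal was taken, outlier spots were left out, the 75th percentile of the non-control spots of an array was subtracted, and replicate spots were averaged, which gave the relative levels. Probes were kept where 3 or more of the 6 arrays had them well above background (26848 of 39429). Symbols came from the RefSeq accession of each probe, without version, through a gene table of GRCm38.p6, while the headers name mm9; 26424 probes had a symbol. The brightest kept probe stood for a gene, probes without a symbol were grouped by the identifier in the files, and the 21800 entries so made, 15233 with a symbol, are called genes.

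The null and wild-type groups were tested in R 4.3.3 by limma 3.58.1 (lmFit, eBayes), two-sided, with Benjamini-Hochberg adjustment over all genes, and called at an adjusted p under 0.05. All adjusted p values are limma's. SE is the moderated standard error. Exact permutation of 3 against 3 pools was not run, since its smallest p is 0.1. Each p value sets the difference between the groups against the spread among the 3 pools of a group, as moderated over all genes. Whether 4 embryos in a pool came from separate litters is not given, so how independent the pools are is not known.

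Pools of the same number shared a slide. Their deviations from the group means correlated at -0.41, -0.09 and -0.41 across genes, so the numbers were not taken to pair the samples, and the slide as a block is an alternative. The genes named were the 10 factors, Arid3b, up to 4 called genes of each of 5 lists of related genes (where none was called, the 2 with the smallest p), called markers of other cell types, and the 3 genes most like a factor. Genes named outside this rule were chosen after their values were seen: Prl3d1, Gcm1, Tfap2c, Dlx3, Dlx4, Edn2, Edn3, Ednrb, Ece1, Erbb3 and Fabp7. Of the genes the rule names, 1 is not reported here. The 10 genes, the lists, the markers and the alternatives were chosen with earlier results of these data known. The alternatives were 2 other scalings, normexp on the median spot signal, 2 other filters, outlier spots kept, the mean of probes, another prior, weights for arrays, a block for slides, the authors' table and each array left out.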

Additional observations from a re-analysis of the deposited data

How the results depend on the processing

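With 3 pools a group, and dim probes for Foxd3, Dlx6, Dlx1 and the weaker Tfap2a probe, small changes could not be told from 0. Of the 10 factors, Tfap2a, Tfap2b, Sox10, Dlx1, Dlx2, Dlx5 and Ednra kept their direction under each of the 17 alternatives, but Sox10 came to 0.0126 with array weights and, relative to the median of all genes, to -0.05. With a pool left out, Sox10 ranged from 0.0308 to 0.68, Tfap2b from -0.90 to -0.17, Dlx2 from -0.71 to -0.30, Dlx5 from -0.41 to -0.16 and Ednra from -0.17 to -0.0065. The cause of the other values below was not tested. Called genes numbered 2273 in all, 4870 with array weights, 1037 without the filter on dim probes, 731 with the slide as the replicate block and 836 to 1758 with a pool left out. Of the 10 factors 2 were called, 1 with normexp, 1 with no filter, 0 with the replicate block and 0 to 2 with a pool left out. Tfap2a was no longer called with no filter (0.91, adjusted p = 0.0608) or the replicate block (0.91, 0.109), and ranged from 0.84 to 1.04 with a pool left out. Dlx1 was no longer called with normexp (-0.35) or the replicate block (-1.13), and ranged from -1.24 to -1.01 with a pool left out. Dlx2 was called with array weights (-0.69). Dlx6 turned to -0.016 with quantile normalization, -0.033 with median scaling and -0.022 with the authors' table, and ranged from -0.13 to 0.28 with a pool left out. Foxd3 turned to 0.28 with normexp, ranged from -0.78 to 0.23 with a pool left out, and gave no value with the filter to all 6 arrays. Sox9 ranged from -0.058 to 0.43 with a pool left out. Of the crest regulators, 1 was called, 2 with no filter, 0 with the filter to all 6 arrays, 5 with array weights and 0 to 1 with a pool left out. Of the arch patterning genes, 3 were called, 1 with normexp, 5 with a trended prior, 8 with array weights, 1 with the replicate block and 0 to 4 with a pool left out. Of the endothelin genes, 1 was called, 0 with quantile normalization, 0 with median scaling, 0 with no filter, 3 with array weights, 0 with the replicate block, 0 with the authors' table and 0 to 1 with a pool left out. Of the guidance genes, 0 were called, and 1 with array weights. Of the crest derivative genes, 1 was called, 2 with normexp, 4 with array weights, 0 with the replicate block and 1 to 2 with a pool left out.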

Other observations

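Markers of tissues that lie next to the arches were also measured, and 10.4% of all genes passed. Of 8 measured placode and otic vesicle markers (Oc90 and Otx1 were not measured), 2 rose: Hmx3, a homeobox gene of the otic vesicle, by 2.92 (SE 0.21, limma adjusted p = 0.000659), and Pax8, by 0.91 (SE 0.22, adjusted p = 0.0424). The adjusted p of Pax8 was 0.147 with the slide as a block, 0.0767 with median scaling, 0.102 with no filter, 0.0520 with the authors' table and 0.0480 to 0.134 with a pool left out. Hmx3 read -4.79, -4.30 and -4.84 in the wild-type pools and -1.54, -1.67 and -1.96 in the null pools, and the groups were far apart, with a change of 1.80 under normexp. Their summed level was 1.56 to 1.88 in the wild-type and 1.83 to 1.99 in the null pools. Of 8 measured neural progenitor markers, Sox3 rose by 1.01 (SE 0.22) and Nkx6-1 fell by -2.90 (SE 0.26), while Pax6, Olig2, Dbx1 and Pou3f2 were not measured. The adjusted p of Sox3 was 0.0909 with the slide as a block, 0.0632 with median scaling, 0.0836 with no filter and 0.0394 to 0.102 with a pool left out. The sums were 3.58 to 3.77 and 3.74 to 3.83.

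Of 10 pharyngeal endoderm markers, Sox17 rose by 1.22 (SE 0.16) and Nkx2-1, a thyroid and lung factor, fell by -0.79 (SE 0.20), with sums of 1.94 to 2.36 in the wild-type and 2.20 to 2.31 in the null pools. The groups were apart for 6 of the 10, beside 33% of all genes. The adjusted p of Nkx2-1 was 0.149 with the slide as a block, 0.113 with no filter and 0.0610 to 0.145 with a pool left out, and with normexp its change was -0.24 (adjusted p = 0.339). Of 10 cardiomyocyte markers, Nppa rose by 1.27 (SE 0.18) and 9 did not pass. Of 6 measured markers of the arch mesoderm core (Msc and Myf5 were not measured) 0 passed with limma and 1 had an unadjusted p under 0.05, and of 8 endothelial markers 0 passed and 0 had such a p. The arch mesoderm sums were 3.38 to 3.65 and 3.44 to 4.03, and the endothelial sums 3.53 to 3.68 and 3.81 to 4.08.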
